A study of Mus musculus with 26 samples.

Results

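Germline stem cells (GSC), self-renewing cells of the male germ line kept in culture, and fibroblasts, connective tissue cells, are the cell types from which the reprogrammed lines of a mouse series were made. Their transcript levels are compared here on 6 of the 26 arrays of the series, chosen by the cell type in the labels: 4 GSC arrays (2 independent lines, with technical arrays a and b of each) and 2 fibroblast arrays (a and b of 1 line). An embryonic stem cell line (ESC, 2 arrays) is given beside them. All lines carry the OG2 strain background, whose cells hold a green fluorescent reporter driven by Pou5f1 sequences, and total RNA was measured on Illumina BeadChips. The title of the series asks about a memory of the source cell after reprogramming, and the source cells are set against each other here. The labels name no age, sex, tissue of origin, passage, treatment or feeder layer for either cell type. The fibroblasts are 1 line, so no value below separates fibroblasts in general from that line.

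Germline stem cells are the cultured counterpart of spermatogonial stem cells, which divide in response to GDNF from their niche and keep the male germ line supplied. Such cells hold germ-cell-specific RNA-binding proteins, a piRNA pathway that silences transposons, and several factors shared with pluripotent cells. Fibroblasts secrete and remodel extracellular matrix, pull on it through stress fibres of actin and myosin, and keep a positional code of Hox genes.

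The GSC lines were far closer to each other than to fibroblasts. Deposited intensities were background-corrected and quantile normalized to a log2 scale, on which 1 unit is a 2-fold difference, and the 2 arrays of a line were averaged. Over 10660 genes the root mean square log2 difference was 1.41 between GSC line 1 and fibroblasts and 1.36 between GSC line 2 and fibroblasts, against 0.226 between the 2 GSC lines. At least 2-fold differences separated GSC line 1 from fibroblasts at 3841 genes and GSC line 2 at 3775 genes, while 30 genes differed as much between the GSC lines. The ESC line lay 1.09 from GSC line 1, 1.07 from GSC line 2 and 1.26 from fibroblasts.

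The fibroblast arrays stood apart before normalization. Median raw intensities were 90.1 to 101.4 on the GSC arrays, against 134.4 and 143.2 on the fibroblast arrays. At the 95th percentile the GSC arrays read 794 to 982, against 2764 and 2820 on the fibroblast arrays. Of 25697 probes, 12962 to 13776 were detected (detection p under 0.05) on the GSC arrays, and 12214 and 12097 on the fibroblast arrays. No other array of the series was as bright as those of the fibroblasts, so array brightness and cell type cannot be told apart.

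A gene was called when limma gave a Benjamini-Hochberg adjusted p under 0.05 over all 10660 genes and the difference was at least 2-fold. Differences are given in log2 units, GSC minus fibroblast, with the standard error of the fit, and the single fibroblast line was assumed to vary as the other lines of the series do. The test called 3381 genes (31.7%), 1823 higher in GSC (17.1%) and 1558 lower (14.6%). Of the genes called higher, 1670 were at least 2-fold higher in both GSC lines, and of the genes called lower, 1495 were at least 2-fold lower in both. Differences of at least 16-fold were found for 85 genes called higher and 111 called lower. The median difference of all genes was 0.06. The split depended on the scaling: 53.9% of the calls were higher in GSC, but 28.4% with median scaling in place of quantile normalization (1198 higher and 3027 lower), which put the median of all genes at -0.29. Quantile normalization of log2 intensities without background correction called 1892 genes, 1879 of them among the 3381 in the same direction.

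**Figure D1:**
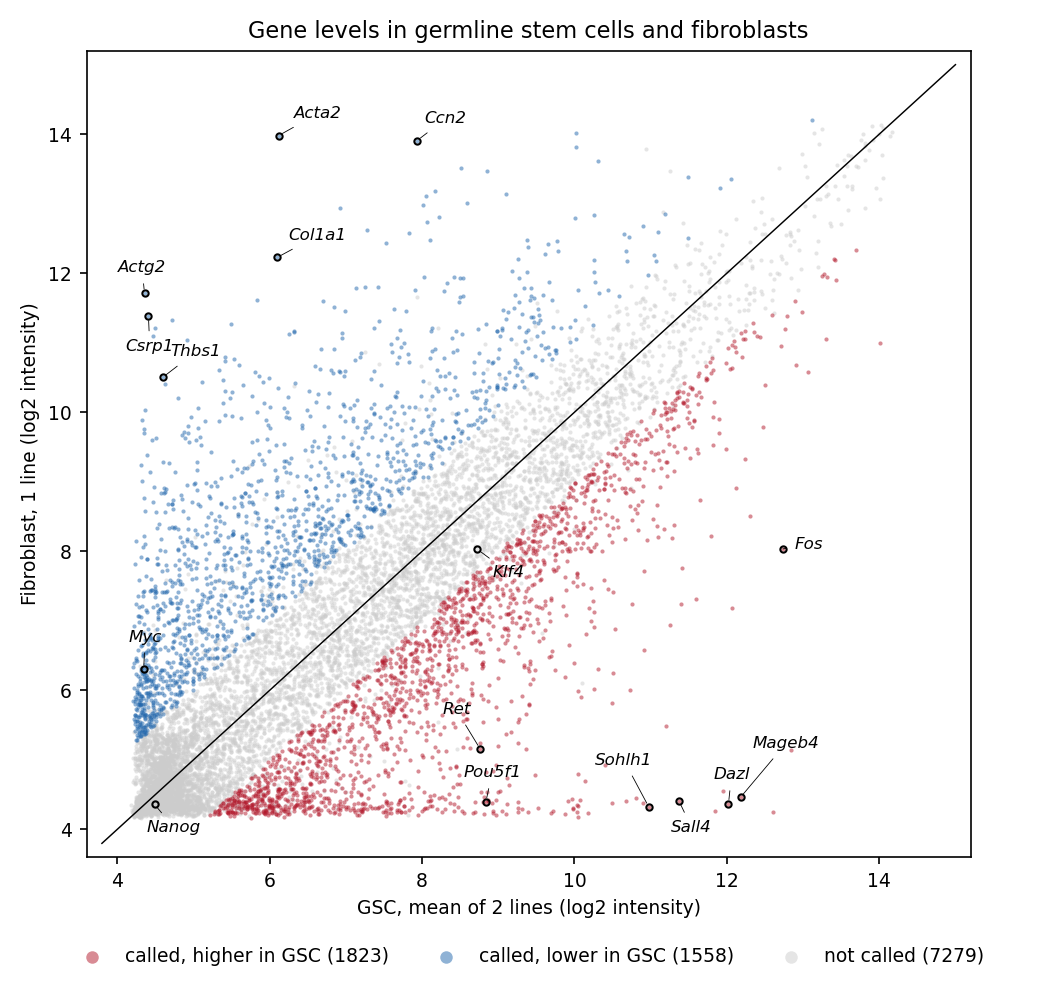
Each point is 1 of 10660 genes, placed by its mean log2 intensity over the 2 GSC lines (x axis) and its log2 intensity in the fibroblast line (y axis), with a line of equality. The 1823 genes called higher in GSC lie below that line and the 1558 called lower above it, with Dazl, Mageb4, Sall4 and Sohlh1 at the lower right and Acta2, Actg2, Csrp1 and Thbs1 at the upper left.

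The labels were checked against markers of each cell type. Of 10 germline stem cell markers, 8 were on the array, all 8 were detected on every GSC array, and 4 on no fibroblast array. Their mean log2 level was 8.86 in GSC line 1 and 8.97 in GSC line 2, against 4.75 in fibroblasts. By the test 6 of these 8 were called higher in GSC and 0 lower. Of 12 fibroblast markers, 11 were on the array and all 11 were detected on both fibroblast arrays. Their mean level was 5.82 in GSC line 1 and 6.09 in GSC line 2, against 8.52 in fibroblasts. Of these 11, 6 were called lower in GSC and 0 higher, so the mean does not hold for each marker. Of the same 11, 8 were also detected on every GSC array and 2 on none. Probes under the names Zbtb16 and Kit (germ cells) and Fn1 (fibroblasts) were not analysed here. In cultures measured in bulk, fewer cells of a type and less RNA per cell cannot be told apart.

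RNA regulators of germ cells, among them the piRNA pathway, were higher in GSC almost throughout. Of 42 listed genes 35 were on the array and 32 passed the detection filter. Of these, 30 were called higher in GSC, 0 lower and 2 were not called, where 17.1% of all genes were called higher. Their median difference was 4.43, against 0.06 for all genes. A gene active in 1 cell type could pass the filter through that cell type alone, so such counts describe the lists. No fibroblast array detected 25 of the 32, and 5 were detected on both fibroblast arrays. At most those 5 of the list were detected on all 6 arrays, and 4 of them were called higher. Of all 6959 genes detected there, 1273 were called higher.

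Dazl, which encodes an RNA-binding protein that promotes translation in germ cells, read 11.86, 12.07, 11.91 and 12.26 in GSC, against 4.38 and 4.36 in fibroblasts (log2 intensity on arrays a and b of each line). No fibroblast array detected it, and measured against the detection floor of those arrays it was at least 150-fold higher in GSC (7.65 ± 2.00, adjusted p = 0.0122). Mageb4, a germ cell gene of the MAGE family, read 12.17, 12.08, 12.22 and 12.25 in GSC, against 4.62 and 4.31 in fibroblasts, at least 167-fold higher in GSC (7.72 ± 1.00, adjusted p = 0.000317). Both genes were high on every GSC array and undetected in fibroblasts. Another Mageb4 probe gave a difference of 3.86.

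Taf7l, a germ cell counterpart of the general transcription factor subunit Taf7, read 11.76, 11.79, 11.82 and 12.02 in GSC, against 4.33 and 4.199 in fibroblasts, at least 133-fold higher in GSC (7.58 ± 1.59, adjusted p = 0.00404). Piwil2, a protein that binds piRNAs, read 10.90, 10.87, 10.91 and 10.93 in GSC, against 4.37 and 4.38 in fibroblasts, at least 68.9-fold higher in GSC (6.53 ± 0.78, adjusted p = 0.000197). No fibroblast array detected either gene. Tex19.1, a gene that restrains transposons in germ cells, was at least 142-fold higher in GSC (7.39 ± 0.33, adjusted p = 1.32e-06). Ddx4, the vasa RNA helicase of germ cells, read 8.03, 8.26, 7.65 and 8.09 in GSC, against 4.30 and 4.23 in fibroblasts, at least 9.26-fold higher in GSC (3.74 ± 0.63, adjusted p = 0.00125). The tested genes of the list without a call were Ybx2 (0.45 ± 0.84) and Elavl2 (1.21 ± 0.55), named after their values were seen.

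Transcription factors and self-renewal genes of spermatogonial stem cells were less uniform. Of 40 listed genes 29 were tested: 18 were called higher in GSC (62.1%), 1 lower (3.45%) and 10 were not called. Over all genes these shares were 17.1% and 14.6%. The median difference of the list was 1.80. No fibroblast array detected 16 of the 29, and 13 were detected on both fibroblast arrays. Sall4, a zinc finger factor of germ cells and pluripotent cells, read 11.44, 11.29, 11.37 and 11.39 in GSC, against 4.49 and 4.33 in fibroblasts, at least 95.5-fold higher in GSC (6.96 ± 0.34, adjusted p = 1.72e-06). Its ESC level was 11.39, and its other probes gave differences down to 1.31. Sohlh1, a helix-loop-helix factor of spermatogonial differentiation, read 11.15, 11.12, 10.89 and 10.75 in GSC, against 4.31 and 4.35 in fibroblasts (6.65 ± 0.47, adjusted p = 1.33e-05). This probe lay below the floor of both fibroblast arrays, against which it was at least 72.5-fold higher in GSC, while another probe, detected on those arrays, gave a difference of 6.03. Its ESC level of 4.53 lay near that of fibroblasts. Egr4, a zinc finger factor of the early growth response family, read 12.998, 12.63, 12.92 and 12.84 in GSC, against 5.36 and 4.92 in fibroblasts (7.71 ± 0.91, adjusted p = 0.000187).

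Some genes by which these stem cells are usually known did not separate the cell types. Gfra1, the GDNF co-receptor, read 5.34, 5.20, 5.58 and 5.08 in GSC, against 4.86 and 5.26 in fibroblasts (0.24 ± 0.14, adjusted p = 0.202), and these groups overlapped. Its 1 probe was detected on every array of both cell types but lay close to their detection floors (4.57 to 4.81). Equal Gfra1 levels cannot be inferred from so weak a signal. Ret, the signalling subunit of the same receptor, read 8.58, 8.50, 9.10 and 8.88 in GSC, against 5.40 and 4.92 in fibroblasts, and was called (3.61 ± 0.18, adjusted p = 2.22e-06). Etv5 (0.12 ± 0.58) and Id4 (0.38 ± 0.56), regulators of stem cell maintenance named after their values were seen, were not called. Foxc2, a forkhead factor, was the 1 gene of the list called lower in GSC (-1.77 ± 0.28), a call lost on the authors' processed values.

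**Figure D2:**
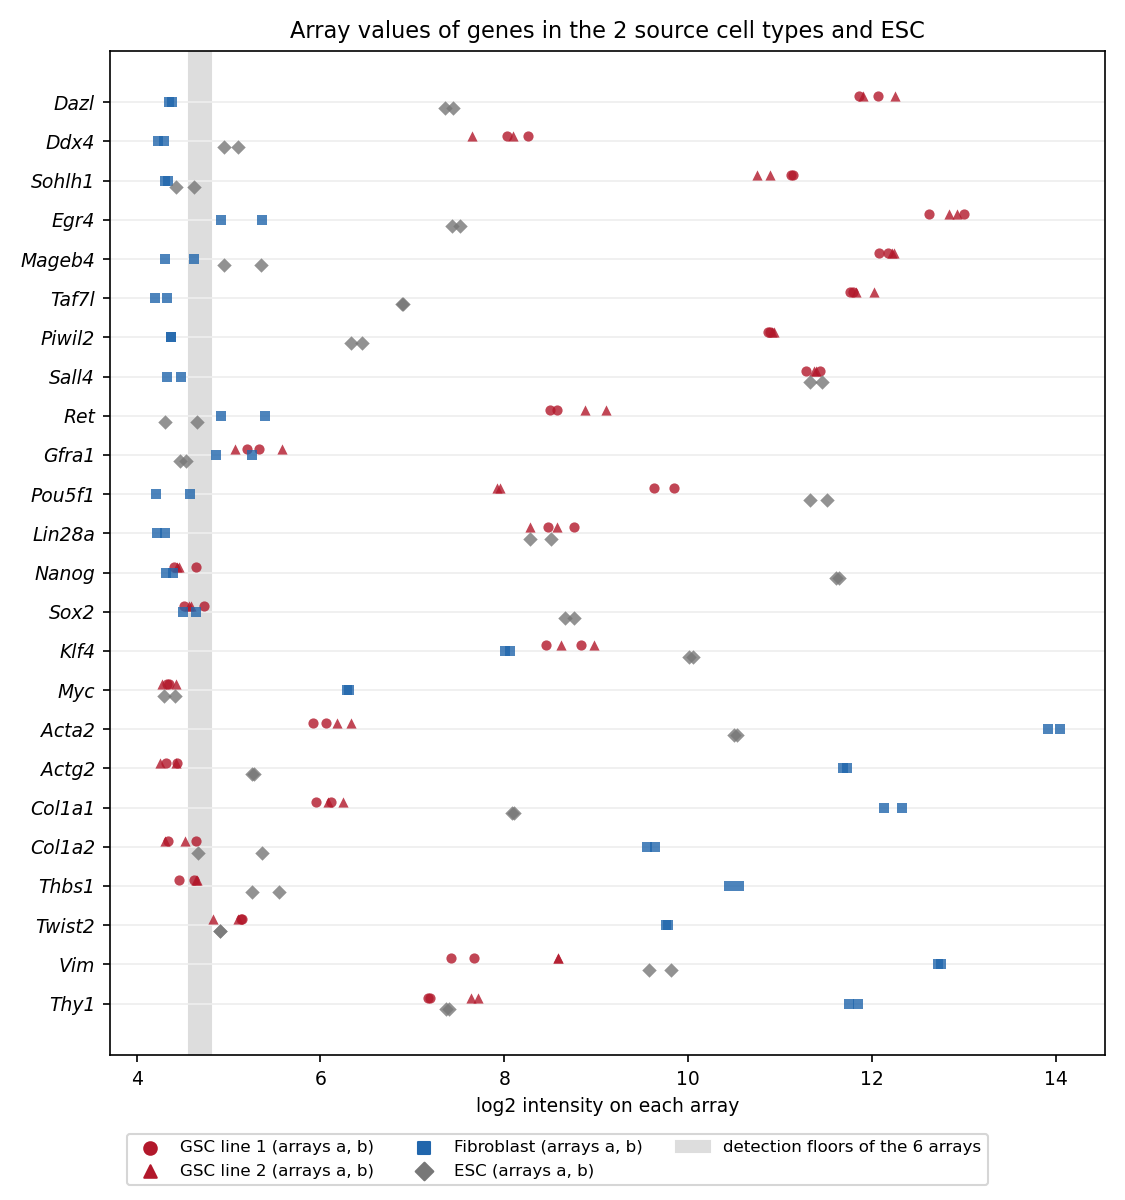
Log2 intensity (x axis) of 24 genes on each array of GSC line 1 (circles), GSC line 2 (triangles), fibroblasts (squares) and ESC (diamonds), with the range of detection floors of the GSC and fibroblast arrays shaded. From Dazl to Sall4 every GSC array lies far to the right of both fibroblast arrays, and from Acta2 to Thy1 far to the left. For Gfra1, Nanog and Sox2 the GSC and fibroblast arrays lie together, while for Nanog and Sox2 ESC lies far to the right.

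Meiotic genes were partly active in GSC. Of 29 listed genes 15 were tested, 9 were called higher in GSC (60%, against 17.1% of all genes) and 0 lower. The median was 2.18. No fibroblast array detected 8 of the 15, and 4 were detected on both fibroblast arrays. The 3 with the largest differences were subunits of the meiotic cohesin complex, which holds sister chromatids together. Stag3 read 10.01, 9.83, 10.46 and 10.26 in GSC, against 4.79 and 4.62 in fibroblasts (5.44 ± 1.19, adjusted p = 0.00512). Smc1b (5.004 ± 1.16) was at least 22.1-fold higher and Rec8 (4.14 ± 0.64) at least 12.8-fold higher. The ESC line also held these transcripts, at 8.68 for Stag3, 8.22 for Smc1b and 7.74 for Rec8.

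The cohesin subunits that work in all dividing cells were not called. Smc1a, the partner of Smc1b, differed by 0.01 ± 0.22 (adjusted p = 0.978), Stag1, the partner of Stag3, by -0.58 ± 0.21 (adjusted p = 0.052) and Rad21, the partner of Rec8, by -0.57 ± 0.36 (adjusted p = 0.232). With median scaling Stag1 and Rad21 were called lower in GSC, and the direction of Smc1a turned under 4 alternatives. These genes belong to 11 pairs in which the first gene is known from germ cells or epithelia and the other was chosen as its partner. Taf7, the general counterpart of Taf7l, was detected on 1 GSC array and no fibroblast array (0.30 ± 0.28, -0.17 with values raised to the floor).

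In 3 pairs both members were called, in opposite directions. Tktl1, a transketolase-like gene, was at least 36.3-fold higher in GSC (5.67 ± 0.55), while the transketolase Tkt itself was lower (-1.63 ± 0.19, adjusted p = 0.00017). Ldhc, the lactate dehydrogenase of germ cells, read 8.39, 8.42, 7.10 and 6.998 in GSC, against 4.33 and 4.17 in fibroblasts (3.47 ± 0.80), at least 7.63-fold higher in GSC. The somatic enzyme Ldha was lower in GSC (-2.77 ± 0.34, adjusted p = 0.000224). Tuba3a, an alpha-tubulin of the testis, read 12.84, 12.17, 12.70 and 12.71 in GSC, against 4.23 and 4.26 in fibroblasts (8.36 ± 0.97, adjusted p = 0.000167). Its relative Tuba1a was lower in GSC (-1.92 ± 0.53, adjusted p = 0.0157), a call lost without GSC line 1. The Tuba3a probe read here lay below the floor of both fibroblast arrays, against which it was at least 225-fold higher in GSC, while another probe of the gene was detected on those arrays, and differences over its probes ran down to 4.97. Tuba3a has near-identical copies, so its probes may read more than 1 gene.

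In the mRNA export pair both genes were higher in GSC, Nxf2 at least 19.12-fold (4.78 ± 0.18) and Nxf1 by 1.26 ± 0.30. The call of Nxf1 was lost with median scaling and without background correction. The chaperone genes Hspa2 (1.42 ± 0.53) and Hspa8 (-0.10 ± 0.12) were not called, although 6 of the alternatives called Hspa2. Rnf17 (1.24 ± 0.69, at least 1.72-fold over the fibroblast floor) was not called either, and Rnf138 was called higher (1.76 ± 0.24) with another probe at -0.89. The call of Rnf138 was lost without background correction and with the median over probes.

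**Figure D3:**
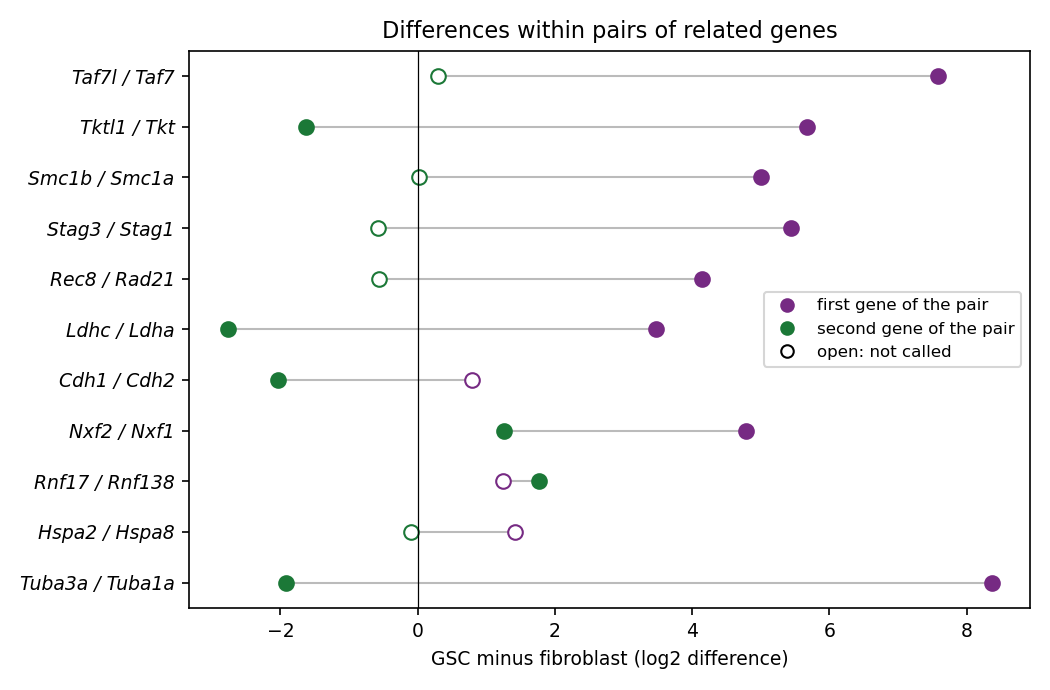
GSC minus fibroblast log2 difference (x axis) of both genes of 11 chosen pairs, with filled points where a gene was called and open points where it was not. In the pairs Tktl1 and Tkt, Ldhc and Ldha, and Tuba3a and Tuba1a, both genes are called and lie on opposite sides of 0.

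Promoters of germ cell genes are shown for a short sequence, the E-box CACGTG, which each of those printed holds. Most promoters of such genes, that of Dazl among them, hold none. The E-box is bound by helix-loop-helix factors such as MAX. The sequences are from RefSeq, assembly GRCm38.p6, with 250 bases before each start and 50 after it, and were found for 8630 of the 10660 genes. Capitals mark all matches, on either strand, of 5 motifs: the E-box, the E2F site GCGGGAA, the AP-1 site TGANTCA, the TEAD site GGAATG and the CArG box of serum response factor. Nxf2 (chrX:134964705-134965004, minus strand) holds 5 E-boxes, Sohlh1 (chr2:25847199-25847498, minus strand) holds 3, and Ddx4 (chr13:112652261-112652560, minus strand) and Taf7l (chrX:134476441-134476740, minus strand) hold 1 each.
Nxf2 promoter: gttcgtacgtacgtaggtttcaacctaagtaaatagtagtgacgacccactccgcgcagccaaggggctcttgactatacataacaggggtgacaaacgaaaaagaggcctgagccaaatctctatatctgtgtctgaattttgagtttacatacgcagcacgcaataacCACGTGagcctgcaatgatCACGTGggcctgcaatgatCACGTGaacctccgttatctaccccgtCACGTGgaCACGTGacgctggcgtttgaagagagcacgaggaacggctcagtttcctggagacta
Sohlh1 promoter: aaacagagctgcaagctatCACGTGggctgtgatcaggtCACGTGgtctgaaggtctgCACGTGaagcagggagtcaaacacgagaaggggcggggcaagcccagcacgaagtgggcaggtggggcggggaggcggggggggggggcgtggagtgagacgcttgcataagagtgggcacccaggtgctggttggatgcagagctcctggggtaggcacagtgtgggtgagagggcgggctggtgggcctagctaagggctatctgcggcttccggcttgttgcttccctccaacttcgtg
Ddx4 promoter: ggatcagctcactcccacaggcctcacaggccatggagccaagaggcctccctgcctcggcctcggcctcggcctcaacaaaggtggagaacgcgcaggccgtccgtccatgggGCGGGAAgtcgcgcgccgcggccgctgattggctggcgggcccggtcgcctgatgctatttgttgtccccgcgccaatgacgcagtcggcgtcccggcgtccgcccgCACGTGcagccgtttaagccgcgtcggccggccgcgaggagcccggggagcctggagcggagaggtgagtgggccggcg
Taf7l promoter: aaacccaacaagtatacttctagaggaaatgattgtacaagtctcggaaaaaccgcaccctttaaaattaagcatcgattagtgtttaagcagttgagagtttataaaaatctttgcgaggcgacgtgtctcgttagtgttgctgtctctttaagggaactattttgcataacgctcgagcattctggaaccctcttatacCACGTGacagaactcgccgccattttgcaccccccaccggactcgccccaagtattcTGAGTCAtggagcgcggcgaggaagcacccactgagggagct
In Ddx4 the other capitals are an E2F match and in Taf7l an AP-1 match. Of 57 stem cell, germ cell RNA and meiosis genes called higher in GSC, 46 had a promoter entry. An E-box was in 12 of these (26.1%), against 10.1% of the 8630 promoters. In the 250 bases before the start alone the shares were 21.7% and 8.41%. The AP-1 site was in 10.9% (5.33% of all), the E2F site in 8.7% (7.93%), the TEAD site in 2.17% (12%) and the CArG box in 0 of 46 (1.38% of all). Lists and motifs were chosen with earlier results of these data known, so these shares carry no test.

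Matrix genes were lower in GSC. Of 45 listed collagens and other matrix proteins 32 were tested: 24 were called lower, 2 higher and 6 were not called, where 14.6% of all genes were called lower. The median difference was -3.72. Col1a1, a chain of type I collagen, read 6.11, 5.95, 6.09 and 6.25 in GSC, against 12.33 and 12.13 in fibroblasts (-6.13 ± 1.23, adjusted p = 0.0033). Col1a2, the other chain of that collagen, was detected on no GSC array and was at least 31.8-fold lower in GSC (-5.14 ± 0.64). Ccn2, a matricellular growth factor, read 8.01, 7.81, 7.99 and 7.94 in GSC, against 13.90 and 13.92 in fibroblasts (-5.97 ± 0.31, adjusted p = 2.48e-06). The groups did not overlap in these genes, as differences of this size imply. Thbs1, which encodes thrombospondin 1, read 4.63, 4.46, 4.65 and 4.66 in GSC, against 10.45 and 10.55 in fibroblasts (-5.90 ± 0.59, adjusted p = 7.69e-05).

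A few matrix genes did not follow. Nid2, a basement membrane linker, was higher in GSC (2.22 ± 0.42, adjusted p = 0.00241), as was Fbln1, a fibulin (1.34 ± 0.42, adjusted p = 0.0259), whose call was lost under 4 alternatives, leaving out either GSC line among them. Col3a1, a chain of type III collagen, read 6.16, 6.24, 6.31 and 6.58 in GSC, against 10.23 and 10.51 in fibroblasts, but was not called (-4.05 ± 1.53, adjusted p = 0.056), while 8 of the alternatives called it. Dcn and Mgp, named after their values were seen, were not called. Dcn, the proteoglycan decorin, read 7.41, 7.62, 8.39 and 8.44 in GSC, against 7.35 and 7.24 in fibroblasts (0.67 ± 1.69, adjusted p = 0.804). Mgp, a calcification inhibitor, read 8.76, 9.05, 10.53 and 10.63 in GSC, against 9.40 and 9.30 in fibroblasts (0.39 ± 2.08, adjusted p = 0.919). GSC line 2 read higher than GSC line 1 for both genes. The ESC line read 8.37 for Dcn and 8.37 for Mgp.

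Enzymes that cross-link, fold or cut the matrix were lower in GSC for 15 of 26 tested genes and higher for 0, with a median of -1.92. The collagen chaperone gene Serpinh1 read 4.95, 5.05, 4.95 and 5.29 in GSC, against 10.04 and 10.08 in fibroblasts (-4.998 ± 0.52, adjusted p = 8.92e-05). The collagen cross-linking oxidases Lox (-4.76 ± 1.02) and Loxl1 (-4.92 ± 1.05) were lower as well. The protease gene Mmp3, named after its values were seen, read 9.13, 9.18, 9.91 and 10.07 in GSC, against 6.93 and 6.72 in fibroblasts and was not called (2.74 ± 2.09, adjusted p = 0.326).

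Contractile and adhesion genes held the largest decreases. Of 39 listed genes of actin filaments, contraction and focal adhesions 31 were tested, and 27 were called lower in GSC and 0 higher, with a median of -2.59. Acta2, smooth muscle actin, read 5.92, 6.06, 6.18 and 6.33 in GSC, against 13.92 and 14.04 in fibroblasts (-7.86 ± 0.80, adjusted p = 8.12e-05). Actg2, an enteric smooth muscle actin, read 4.44, 4.32, 4.25 and 4.42 in GSC, against 11.69 and 11.73 in fibroblasts, at least 138-fold lower in GSC (-7.35 ± 0.35), where no array detected it. Csrp1, an actin-associated LIM protein, was at least 109-fold lower (-6.97 ± 0.29, adjusted p = 1.03e-06). The ESC line read 10.52 for Acta2 and 5.27 for Actg2.

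Promoters of contractile genes are shown for the CArG box, which serum response factor binds at muscle and cytoskeletal genes. Vcl, which encodes the adhesion protein vinculin (chr14:20929148-20929447, plus strand), holds a CArG box and a TEAD site, and the calponin gene Cnn2 (chr10:79988350-79988649, plus strand) a CArG box and an E2F match, all in capitals.
Vcl promoter: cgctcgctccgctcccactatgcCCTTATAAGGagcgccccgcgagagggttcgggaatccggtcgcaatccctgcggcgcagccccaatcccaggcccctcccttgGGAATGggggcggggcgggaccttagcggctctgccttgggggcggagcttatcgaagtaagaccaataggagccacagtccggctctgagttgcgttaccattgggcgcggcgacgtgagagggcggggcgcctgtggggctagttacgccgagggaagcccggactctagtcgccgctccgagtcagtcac
Cnn2 promoter: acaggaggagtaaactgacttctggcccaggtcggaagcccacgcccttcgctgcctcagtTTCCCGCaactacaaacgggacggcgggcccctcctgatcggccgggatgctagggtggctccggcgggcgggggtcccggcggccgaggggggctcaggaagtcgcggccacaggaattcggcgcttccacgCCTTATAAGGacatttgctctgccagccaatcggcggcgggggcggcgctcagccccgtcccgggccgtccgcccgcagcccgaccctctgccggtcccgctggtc
Both genes were chosen for their motifs after their values were seen. Vcl read 9.24, 9.27, 9.16 and 9.38 in GSC, against 12.15 and 12.26 in fibroblasts (-2.94 ± 0.37, adjusted p = 0.000274). Cnn2 differed by -3.88 ± 0.43 (adjusted p = 0.000138). Of 66 matrix, matrix enzyme and contractile genes called lower, 49 had a promoter entry. The CArG box was in 4 of these (8.16%), against 1.38% of all promoters. The TEAD site was in 12 (24.5%), against 12%, and the E-box in 1 (2.04%). A match is a run of letters and was not tested for binding.

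**Figure D4:**
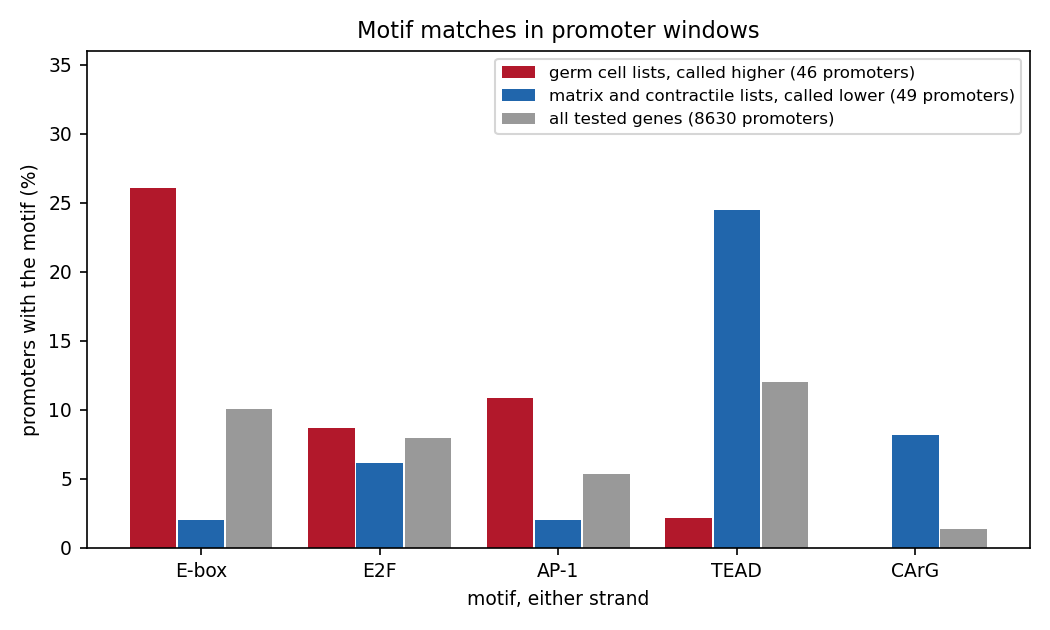
Percent of promoter windows (y axis) with at least 1 match of each motif (x axis), for 46 germ cell genes called higher in GSC, 49 matrix and contractile genes called lower and 8630 promoters of all tested genes. The E-box bar of the germ cell genes (26.1%) and the TEAD and CArG bars of the matrix and contractile genes (24.5% and 8.16%) stand above those of all genes.

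Mesenchymal transcription factors and surface proteins were lower in GSC for 21 of 30 tested genes and higher for 0, with a median of -1.90. Without background correction 11 were called lower. Twist2, a helix-loop-helix regulator of mesenchyme, read 5.14, 5.15, 5.11 and 4.84 in GSC, against 9.76 and 9.78 in fibroblasts (-4.71 ± 0.60, adjusted p = 0.000283). Vim, the intermediate filament vimentin, read 7.67, 7.42, 8.58 and 8.59 in GSC, against 12.76 and 12.72 in fibroblasts (-4.68 ± 1.14, adjusted p = 0.00874). It was detected on every GSC array, and line 2 read 1.04 higher than line 1. Thy1, a surface protein of fibroblasts that spermatogonial stem cells also carry, read 7.17, 7.20, 7.72 and 7.63 in GSC, against 11.85 and 11.75 in fibroblasts (-4.37 ± 1.27, adjusted p = 0.0198). That call was lost without GSC line 1 (adjusted p = 0.0754) and without GSC line 2 (adjusted p = 0.051).

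Of 25 tested Hox genes, the positional code of the body axis, 9 were called lower in GSC (36%, against 14.6% of all genes). For the list 0 were called higher, and the median was -0.80. The count called lower was 5 without background correction and 15 on the authors' processed values. Hoxc6 read 4.94, 4.93, 5.29 and 5.21 in GSC, against 9.54 and 9.75 in fibroblasts (-4.55 ± 0.87, adjusted p = 0.00261). Hoxa5 (-3.05 ± 0.76) and Hoxc9 (-2.89 ± 0.28) followed. The called genes belonged to the A, C and D clusters, and no tested gene of the B cluster was called.

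Of 29 tested epithelial genes 6 were called higher in GSC (20.7%, against 17.1% of all genes), 1 lower and 22 were not called, with a median of 0.09 that turned to -0.13 with values raised to the floor. The count called higher was 3 without background correction and 10 on the authors' processed values. The 1 call lower, Pkp2, a plakophilin gene (-2.12 ± 0.69, adjusted p = 0.0315), was lost under 4 alternatives, leaving out either GSC line among them. Cdh1, which encodes E-cadherin, read 5.38, 5.43, 5.09 and 5.40 in GSC, against 4.58 and 4.48 in fibroblasts and stayed under a 2-fold difference (0.79 ± 0.25, adjusted p = 0.0297, at least 1.45-fold over the fibroblast floor). Its ESC level was 10.34, and on the authors' processed values it was called. Cdh2, which encodes N-cadherin, was lower in GSC (-2.04 ± 0.15, adjusted p = 1.69e-05, at least 3.83-fold against the GSC floor), a call lost without background correction. Another Cdh2 probe was detected on 1 GSC array, and differences over the Cdh2 probes ran up to -1.31. Esrp1, an epithelial splicing factor, was at least 16.8-fold higher in GSC (4.45 ± 0.54). The protease inhibitor genes Spint1 (at least 4.92-fold, 2.79 ± 0.25) and Spint2 (at least 5.2-fold, 2.96 ± 0.59) were higher as well.

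The factors used to reprogramme cells were present in part in each source cell. Of 13 tested genes 6 were called higher in GSC (46.2%, against 17.1% of all genes), 2 lower (15.4%, against 14.6%) and 5 not called. No fibroblast array detected 6 of the 13, and 7 were detected on both, so the share called higher only describes the list. Pou5f1, the factor Oct4, read 9.63, 9.85, 7.96 and 7.92 in GSC, against 4.59 and 4.21 in fibroblasts, at least 16.5-fold higher in GSC (4.44 ± 0.56, adjusted p = 0.000274). The GSC lines differed at this gene by 1.80, and the ESC line read 11.42. Lin28a, an RNA-binding protein that blocks let-7 maturation, read 8.48, 8.76, 8.29 and 8.58 in GSC, against 4.31 and 4.23 in fibroblasts, at least 13.3-fold higher in GSC (4.26 ± 0.96, adjusted p = 0.00604), and no fibroblast array detected it. Its ESC level was 8.40.

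Sox2 and Nanog, core factors of pluripotent cells, were near background in both source cells. Sox2 read 4.73, 4.52, 4.59 and 4.57 in GSC, against 4.50 and 4.65 in fibroblasts (0.03 ± 0.41). Nanog read 4.41, 4.64, 4.44 and 4.47 in GSC, against 4.32 and 4.40 in fibroblasts (0.13 ± 0.44). Neither was detected in fibroblasts, and on the GSC arrays Sox2 was detected on 2 and Nanog on 1. The ESC line read 8.71 for Sox2 and 11.62 for Nanog. Klf4, a zinc finger factor, was detected on all 6 arrays, at 8.46, 8.83, 8.62 and 8.98 in GSC, against 8.06 and 8.01 in fibroblasts (0.69 ± 0.47, adjusted p = 0.27), and turned to -0.10 with median scaling. Myc, a growth-promoting transcription factor, read 4.36, 4.33, 4.43 and 4.27 in GSC, against 6.32 and 6.29 in fibroblasts, at least 3.24-fold lower in GSC (-1.95 ± 0.16, adjusted p = 3.27e-05), a call lost without background correction. Its relative Mycl was higher in GSC, at 9.31, 9.19, 8.93 and 9.04 in GSC, against 6.69 and 6.77 in fibroblasts (2.38 ± 0.38). Klf5 was lower (-1.65 ± 0.31), and Klf2 (-0.05 ± 0.40) and Tbx3 (-0.09 ± 0.44) were not called.

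In the wider pluripotency list 10 of 29 tested genes were called higher in GSC (34.5%), 2 lower (6.9%) and 17 were not called (median 0.69). Over all genes these shares were 17.1% and 14.6%. Without background correction 6 of the list were called higher. No fibroblast array detected 19 of the 29, and 9 were detected on both fibroblast arrays, so the share called higher only describes the list. Dppa5a, a gene of early embryos and germ cells, read 9.89, 10.33, 9.78 and 9.90 in GSC, against 4.56 and 4.33 in fibroblasts, at least 36.2-fold higher in GSC (5.53 ± 0.23, adjusted p = 1.03e-06). Dppa4 was at least 17.5-fold higher (4.70 ± 0.20). Other probes gave differences down to -0.04 for Dppa5a, which has near-identical copies, and 0.15 for Dppa4. Esrrb, an orphan nuclear receptor, was at least 3.05-fold higher in GSC (2.04 ± 0.45), a call lost without background correction, and read 12.14 in ESC.

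Called genes did not place ESC on one side. Of the genes called higher in GSC, the ESC level was nearer to GSC for 49.1%, and of the genes called lower for 65.1%, against 55.2% of all genes. These shares rest on 1 ESC line and carry no test.

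Among genes of DNA methylation and chromatin, 14 of 33 tested were called higher in GSC (42.4%, against 17.1% of all genes). By the test 0 were lower, and the median was 0.64. With median scaling 9 were higher and 4 lower. Dnmt3b, a de novo DNA methyltransferase, read 10.30, 10.15, 9.82 and 9.90 in GSC, against 6.05 and 5.92 in fibroblasts (4.06 ± 1.04, adjusted p = 0.0111), though another probe gave 0.89 and the call was lost with the median over probes. The Polycomb chromodomain genes Cbx2 (3.10 ± 0.20) and Cbx7 (at least 4.33-fold, 2.70 ± 0.18) were higher in GSC.

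Imprinted genes are expressed from 1 parental copy in at least some tissues, and the parental copy in use was not measured here. Among 14 tested paternally expressed genes 2 were higher in GSC and 2 lower (called higher 1 without GSC line 1 and 1 without GSC line 2, called lower 1 without GSC line 1 and 2 without GSC line 2), and among 13 maternally expressed genes 2 were higher and 3 lower. These are 14.3% and 15.4% called higher, against 17.1% of all genes, and 14.3% and 23.1% called lower, against 14.6%. With median scaling 1 paternally expressed gene was called higher and 4 lower, and 5 maternally expressed genes were called lower. Grb10, an adaptor that restrains growth factor signalling, read 6.32, 6.47, 7.11 and 6.93 in GSC, against 11.64 and 11.56 in fibroblasts (-4.89 ± 0.66, adjusted p = 0.000372). Gnas, a G protein subunit gene, was lower as well (-2.995 ± 0.42), whereas Phlda2, a regulator of placental growth, was at least 9.91-fold higher in GSC (3.77 ± 0.53). Impact, a regulator of translation, was lower (-1.76 ± 0.24). Mest was called higher (2.42 ± 0.76, adjusted p = 0.0273), a call lost under 5 alternatives, leaving out either GSC line among them.

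Growth factor pathways differed in their ligands and receptors. Of 38 tested TGF-beta and BMP genes 17 were called lower in GSC (44.7%), 3 higher (7.89%) and 18 were not called (median -1.73). Over all genes 14.6% were called lower and 17.1% higher. Among ligands, Inhba, the activin A subunit gene, read 4.50, 4.42, 4.99 and 4.96 in GSC, against 11.28 and 11.39 in fibroblasts (-6.62 ± 0.90, adjusted p = 0.000394). Among receptors, Acvr2b, which binds activins, read 10.79, 10.48, 10.86 and 10.81 in GSC, against 6.05 and 5.97 in fibroblasts (4.73 ± 0.35, adjusted p = 1.56e-05). Among inhibitors and targets, the BMP antagonist gene Chrd was higher in GSC (1.83 ± 0.45), and the BMP target Id2 was lower (-4.44 ± 0.47).

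Of 26 tested GDNF and FGF genes 8 were called lower in GSC (30.8%, against 14.6% of all genes) and 3 higher (11.5%, against 17.1%). The median was -0.68. The count called lower was 5 without GSC line 1 and 6 without GSC line 2. Besides Ret, the immediate early gene Fos was higher in GSC, at 12.62, 12.52, 12.84 and 12.98 in GSC, against 8.11 and 7.96 in fibroblasts (4.70 ± 0.97, adjusted p = 0.00371). Egr1, another immediate early gene, was called higher (1.37 ± 0.30) but turned to -0.16 with median scaling. The cytokine gene Csf1 (-4.44 ± 0.98) was lower in GSC. Fgf7, a fibroblast growth factor, was called lower as well (-4.198 ± 1.24, adjusted p = 0.0216), a call lost without either GSC line.

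Among 36 tested IGF, PDGF and WNT genes 10 were called lower in GSC (27.8%) and 4 higher (11.1%), with a median of -0.83. Over all genes these shares were 14.6% and 17.1%. With median scaling 19 of the 36 were called lower. Of the ligands, Wnt5a was lower in GSC (-4.23 ± 0.72) and Pdgfb at least 12.3-fold higher (4.05 ± 0.65), although another Pdgfb probe gave 0.21. The receptor kinase gene Axl was lower (-4.38 ± 0.98). Of the WNT targets, Axin2 was higher in GSC (2.73 ± 0.51), and Ccn4, a matricellular protein, read 4.63, 4.78, 5.20 and 5.05 in GSC, against 11.02 and 11.06 in fibroblasts (-6.12 ± 0.53).

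The direction of cell cycle genes depended on the scaling. Of 30 tested genes 13 were called higher in GSC (43.3%) and 3 lower (10%), with a median of 0.95. Over all genes 17.1% were called higher and 14.6% lower. With median scaling 3 cell cycle genes were called higher and 9 lower (median -0.11, which is 0.18 above that of all genes). Top2a, the topoisomerase of dividing cells, was called higher in GSC under every alternative, at 10.66, 10.26, 10.71 and 10.61 in GSC, against 8.55 and 8.36 in fibroblasts (2.11 ± 0.26, adjusted p = 0.000245). Rrm2, a ribonucleotide reductase subunit, was lower in GSC (-2.77 ± 0.37). Among genes of cyclins, CDK inhibitors and p53 targets 8 of 27 were called lower (29.6%) and 3 higher (11.1%), with a median of -0.69. The count called higher was 2 without GSC line 1 and 1 without GSC line 2, and with median scaling 0 were called higher and 16 lower. The p53 targets went both ways. The lower genes were led by Phlda3 (-3.61 ± 0.48), Zmat3 (-3.50 ± 0.27) and Ccng1 (-3.46 ± 0.40). The 3 called higher were the p53 targets Sesn1 (1.67 ± 0.47) and Trp53inp1 (1.33 ± 0.31), and Rb1 (1.41 ± 0.43). Ccng1 read 7.91, 8.03, 8.52 and 8.68 in GSC, against 11.82 and 11.66 in fibroblasts.

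Respiratory chain and ribosomal protein genes had medians near 0 by quantile normalization and below 0 with median scaling. Of 73 tested respiratory chain and ATP synthase genes 8 were called higher in GSC (11%) and 5 lower (6.85%), with a median of 0.19. Over all genes 17.1% were called higher and 14.6% lower. With median scaling 3 of the 73 were called higher and 35 lower (median -0.93). Of 59 tested ribosomal protein genes 0 were called higher and 7 lower (11.9%, median 0.02), but 46 lower with median scaling (median -1.33). Cox8c, a testis form of a cytochrome oxidase subunit, was at least 6.63-fold higher in GSC (3.33 ± 0.48). Among 22 tested glycolysis genes 4 were called higher in GSC (18.2%) and 6 lower (27.3%), with a median of -0.69. Those called higher numbered 2 without GSC line 1 and 3 without GSC line 2, and those called lower 3 without GSC line 1 and 4 without GSC line 2. The counts were 3 higher and 11 lower with median scaling. The glucose transporter gene Slc2a3 was higher (2.97 ± 0.58), and Tpi1, triosephosphate isomerase, lower (-2.66 ± 0.60, with another probe at -0.28). Of 16 tested cholesterol genes 3 were called higher in GSC (18.8%) and 2 lower (12.5%), near the shares of all genes. The synthesis enzyme gene Dhcr7 (2.46 ± 0.50) and the regulator gene Srebf2 (2.02 ± 0.33) were higher. The count of cholesterol genes called lower was 0 without GSC line 1 and 0 without GSC line 2, and 6 with median scaling. Of 22 tested lysosomal genes 1 was called higher (4.55%) and 5 lower (22.7%), among them the acid lipase gene Lipa (-2.55 ± 0.32). For lysosomal genes the counts were 0 higher and 13 lower with median scaling.

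Of 28 tested interferon and MHC class I genes 7 were called higher in GSC (25%) and 4 lower (14.3%). Those shares were 17.1% and 14.6% over all genes. The median of the list was 0.48. The genes called higher were 2 without GSC line 1 and 4 without GSC line 2, and those called lower 2 without GSC line 1 and 3 without GSC line 2. Without background correction 3 were higher and 2 lower. Irf1, a transcription factor of the interferon response, read 11.61, 11.28, 11.22 and 11.10 in GSC, against 8.29 and 8.47 in fibroblasts (2.92 ± 0.42, adjusted p = 0.000552). Ifitm2, an interferon-induced membrane protein gene, was lower in GSC (-1.57 ± 0.34). Among 26 tested chemokine and cytokine genes 2 were called higher (7.69%) and 5 lower (19.2%), with a median of -0.76. Of these, the lower ones numbered 2 without GSC line 1 and 3 without GSC line 2 (8 with median scaling), and the higher ones 1 without GSC line 1 and 1 without GSC line 2. Socs3, a feedback inhibitor of cytokine signalling, was higher in GSC (2.53 ± 0.28), and the cytokine gene Il11 was lower (-4.25 ± 0.35).

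Markers of other cell types the cultures could hold were read in 4 lists. Of 20 listed Sertoli and Leydig cell markers 9 were tested and 3 were detected on every GSC array. Their mean level was 5.39 and 5.25 in the GSC lines, against 4.77 in fibroblasts. Wt1, a zinc finger factor of Sertoli cells, read 9.26, 9.15, 8.79 and 8.77 in GSC, against 5.45 and 4.95 in fibroblasts and was the 1 gene of that list with a call (3.79 ± 0.62, adjusted p = 0.0011), or 11.1% of the tested genes against 17.1% of all. The part of other testis cells in the GSC levels was not tested. Of 8 tested macrophage markers 0 were called higher and 3 lower in GSC (37.5%, against 14.6% of all genes), among them the lysozyme genes Lyz1 (-3.10 ± 0.50) and Lyz2 (-2.93 ± 0.23), whose near-identical sequences may share probes. Of 11 tested endothelial markers 2 were called higher (18.2%) and 3 lower (27.3%), with the VEGF receptor gene Flt1 at -2.67 ± 0.32. Of 14 tested markers of further lineages 1 was called higher and 5 lower (35.7%), with the adipocyte regulator gene Pparg on no GSC array and at least 5.21-fold lower.

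Of 5 tested sex-linked genes 1 was called (20% called higher, against 17.1% of all genes). Usp9y, a Y-linked deubiquitinase gene, was at least 12.4-fold higher in GSC (4.16 ± 0.23). The other Y-linked genes Kdm5d (-0.11 ± 0.32), Uty (-0.10 ± 0.15) and Eif2s3y (0.04 ± 0.74), named after their values were seen, were detected on all 6 arrays and not called. Xist, the RNA of the inactive X chromosome, read 4.79, 4.54, 4.88 and 4.61 in GSC, against 4.43 and 4.32 in fibroblasts and was not called (0.33 ± 0.51).

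**Figure D5:**
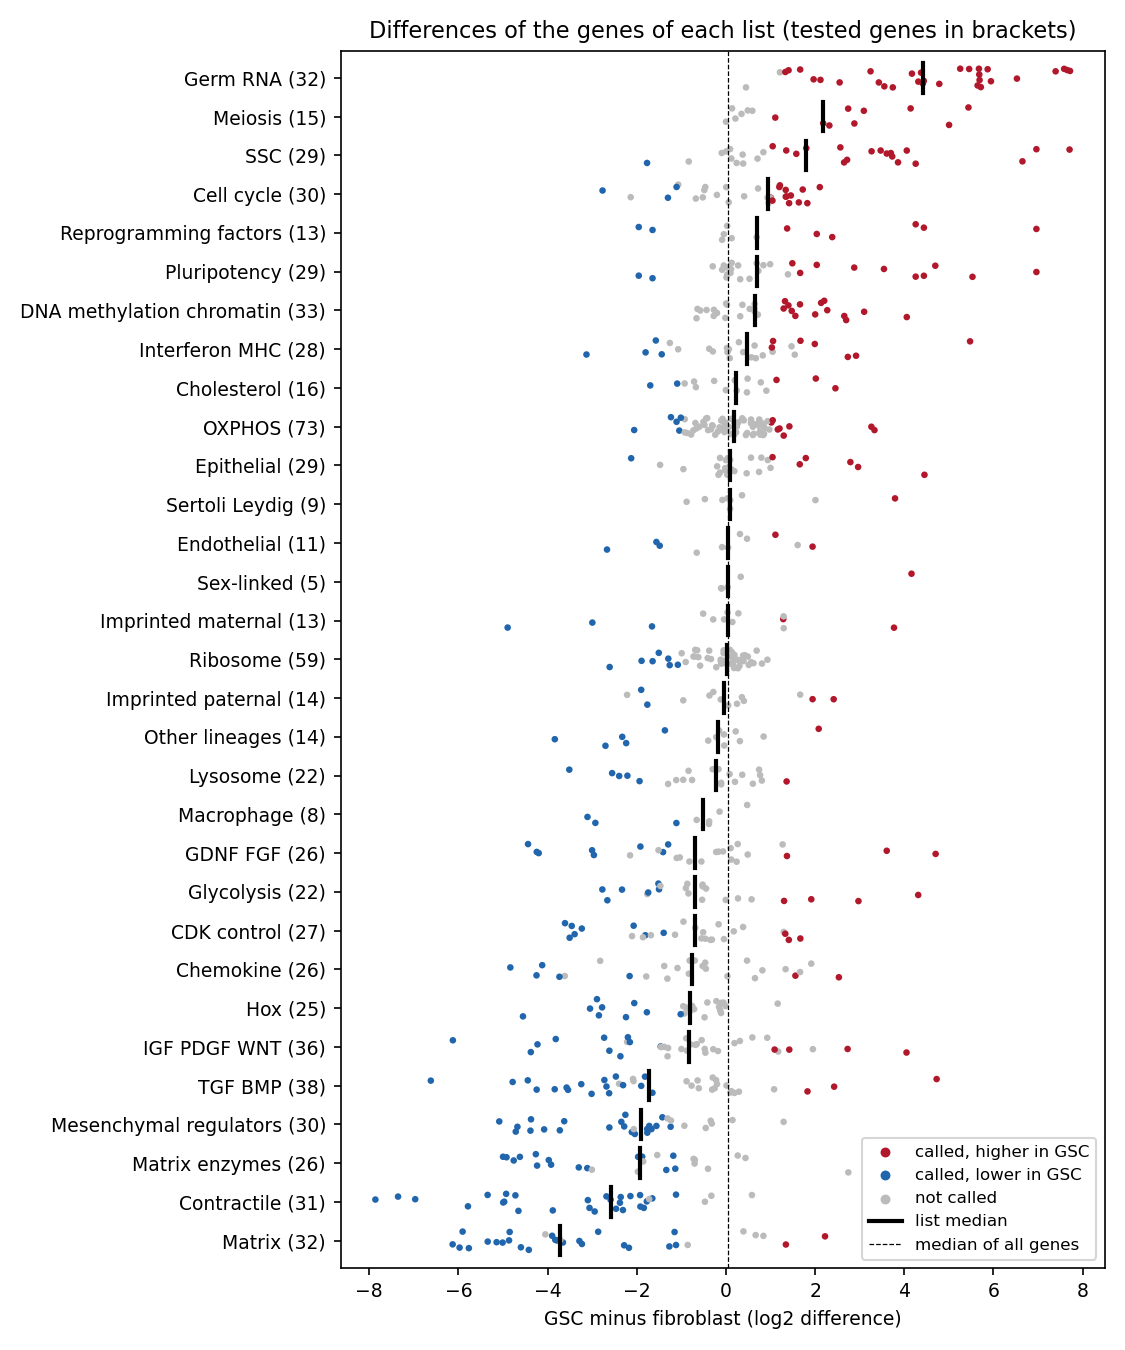
GSC minus fibroblast log2 difference (x axis) of each tested gene in 31 lists (rows, with the number of tested genes), coloured by call, with the list median as a bar and the median of all genes as a dashed line. The germ cell RNA list has the highest median (4.43) and the matrix list the lowest (-3.72). With median scaling the medians of the cell cycle, respiratory chain, ribosome, cholesterol, maternally expressed imprinted and sex-linked lists lie below 0.

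Some of the 10 called genes with the largest difference in each direction stood outside the lists. Bex4, an X-linked gene of the BEX family, was at least 64.4-fold higher in GSC (6.35 ± 0.36, adjusted p = 4.34e-06). Lower in GSC were Ptn, the growth factor pleiotrophin (-6.71 ± 1.19), Bcat1, a branched-chain aminotransferase gene (-6.62 ± 0.45, with another probe at -2.22), and Anxa3, an annexin gene (-6.02 ± 1.13). Ptn read 4.52, 4.34, 4.56 and 4.59 in GSC, against 11.21 and 11.22 in fibroblasts.

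The GSC lines differed from each other by at least 2-fold at 18 of the 3381 called genes. The 5 called genes with the largest difference between the lines were Pou5f1, Ly6g6e, Neurog3, Ly6g6c and Patj, which read higher in GSC line 1. Neurog3, a helix-loop-helix factor of spermatogonial progenitors, read 8.45, 8.41, 7.02 and 7.003 in GSC, against 4.21 and 4.29 in fibroblasts, at least 7.59-fold higher in GSC (3.47 ± 0.42, adjusted p = 0.000218). Ly6g6e, a Ly6 family gene, read 10.72, 10.79, 9.32 and 9.30 in GSC, against 4.25 and 4.24 in fibroblasts, at least 37.8-fold higher in GSC (5.79 ± 0.85). Both lines lay above fibroblasts in each of these genes, and the call of Patj (3.04 ± 0.83, at least 5.86-fold over the fibroblast floor) was lost without GSC line 1. Another Patj probe was detected on 1 fibroblast array, and differences over the Patj probes ran down to 0.84.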

How the data were processed

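Total RNA of 13 mouse lines was measured on 26 Illumina BeadChip arrays, 2 technical arrays a line, and 6 arrays (2 GSC lines and 1 fibroblast line) carry the comparison. The deposited intensity table holds 25697 probes and is neither normalized nor background-subtracted, as its values show. Each intensity has a detection p-value, deposited by the authors beside it. The authors' own processed values, deposited on a log2 scale, served as an alternative, and BeadStudio 3.2 and lumi are named per the submitters' processing notes with no role. The steps that made those values are not given in the sources used here.

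The neqc function (limma 3.58.1, R 4.3.3, offset 16) corrected the background, with the negative controls derived from those p-values, and quantile normalized all arrays, after which arrays a and b of each line were averaged. A probe was tested if some line had it detected (p under 0.05) on its 2 arrays, and the brightest probe stood for a gene. The 1719 probes without a gene name were left out. limma fitted 1 mean per group to all 13 lines (7 residual degrees of freedom). The p-values rest on the spread between lines of a group, pooled over GSC, GSC-derived induced pluripotent and germline-derived pluripotent lines. The fibroblast line added nothing to this spread. For Dazl the standard error was 2.00, although GSC line 1 minus GSC line 2 was -0.12. The script was tested on simulated data. Lines of a group carry numbers that are only names.

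Named genes were the reprogramming factors and defining markers, the 3 called genes with the largest difference in each direction of each list, the 10 largest of all genes in each direction, the 5 called genes that differed most between the GSC lines, and the chosen pairs. Members and gene lists were chosen with earlier results of these data known. Alternatives changed the normalization, filter, probe choice, arrays, lines and unit of the fit. Precision is limited by how few lines and arrays there are.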

Additional observations from a re-analysis of the deposited data

How the results depend on the processing

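The comparison was recomputed under 15 alternatives. The count of 3381 called genes ran from 1892 without background correction to 4301 on the authors' processed values, and was 2860 and 2963 without GSC line 1 and without GSC line 2. Without background correction 970 genes were called higher in GSC and 922 lower, and with median scaling 1198 higher and 3027 lower. With line as a random block and the array letter as a replicate block, 3693 genes were called (1980 higher and 1713 lower). The letters a and b name technical arrays of each line and do not pair the lines. The root mean square difference of 1.39 was 0.907 without background correction, 1.62 with median scaling, 1.962 on the authors' processed values, 1.11 without the detection filter, 1.42 with detection in at least 2 lines required, 1.33 with the median over probes and 1.33 with values raised to the floor. Without background correction the ESC level was nearer to GSC for 46.1% of the genes called higher and 69.4% of those called lower. The motif shares in the 250 bases before the start moved by less than their counting interval. Of 2464 values of 169 named genes under the alternatives, 2307 kept direction and side of the threshold, 119 lost the call, 21 gained one and 17 changed sign. Of 153 called named genes, 101 were called under every alternative that tested them, and some alternatives did not test every gene. The sign changes among genes, as the difference after the change, were Sox2 -0.10, Tbx3 0.026, Gfra1 -0.12 and Smc1a -0.094 on the b arrays, Sox2 -0.17, Nanog -0.17, Xist -0.080 and Taf7 -0.17 with values raised to the floor, Klf4 -0.10, Egr1 -0.16, Nap1l4 -0.075 and Smc1a -0.90 with median scaling, Klf2 0.12 on the a arrays, Klf2 0.20 without GSC line 1, Tbx3 0.25 and Smc1a -0.17 with the median over probes, Smc1a -0.018 without GSC line 2. Of 31 list medians, 21 kept their sign throughout. The others became -0.13 for the epithelial list, -0.090 for the maternally expressed list, -0.080 for the sex-linked list, -0.15 for the Sertoli and Leydig list and -0.15 for the endothelial list with values raised to the floor, -0.20 for the epithelial list, -0.28 for the maternally expressed list, -0.10 for the sex-linked list and -0.36 for the endothelial list over the genes detected on all 6 arrays, -0.93 for the respiratory chain list, -1.33 for the ribosome list, -0.11 for the cell cycle list, -0.18 for the maternally expressed list, -0.73 for the cholesterol list and -0.35 for the sex-linked list with median scaling, -0.026 for the ribosome list, 0.046 for the paternally expressed list and -0.10 for the endothelial list on the a arrays, -0.0064 for the ribosome list and -0.0042 for the maternally expressed list without GSC line 1, 0.014 for the paternally expressed list and -0.0061 for the Sertoli and Leydig list without the detection filter, -0.042 for the maternally expressed list with the median over probes, -0.083 for the maternally expressed list on the b arrays.

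Counts in gene lists that moved by over 1.5 times were as follows; the cause was not tested, except that fewer genes or lines enter some settings. Without background correction, the number of genes called higher became 0 for the other lineage, 1 for the chemokine, the paternally expressed and the endothelial, 3 for the epithelial and the interferon, 5 for the respiratory chain and 6 for the pluripotency lists, and the number of genes called lower became 0 for the epithelial, 1 for the pluripotency, the reprogramming factor, the cholesterol and the endothelial, 2 for the respiratory chain and the interferon, 3 for the glycolysis, the chemokine and the other lineage, 5 for the Hox and 11 for the mesenchymal lists. With median scaling, the number of genes called higher became 0 for the CDK control and the lysosome, 1 for the matrix and the paternally expressed, 3 for the respiratory chain and the cell cycle and 9 for the chromatin lists, and the number of genes called lower became 1 for the Sertoli and Leydig, 2 for the stem cell, 4 for the paternally expressed and the chromatin, 5 for the maternally expressed, 6 for the cholesterol, 8 for the chemokine, 9 for the cell cycle, 11 for the glycolysis, 13 for the lysosome, 16 for the CDK control, 19 for the IGF, PDGF and WNT, 35 for the respiratory chain and 46 for the ribosome lists. On the authors' processed values, the number of genes called higher became 1 for the ribosome, 2 for the Sertoli and Leydig and the other lineage and 10 for the epithelial lists, and the number of genes called lower became 0 for the stem cell, 1 for the paternally expressed, 2 for the Sertoli and Leydig, 5 for the cell cycle and 15 for the Hox lists. Without the detection filter, the number of genes called higher became 1 for the chemokine and the paternally expressed lists, and the number of genes called lower became 0 for the epithelial and 3 for the chemokine lists. With detection in at least 2 lines required, the number of genes called lower became 1 for the pluripotency and the reprogramming factor lists. With the median over probes, the number of genes called higher became 1 for the matrix, the paternally expressed and the endothelial lists. With the GSC and fibroblast lines alone in the fit, the number of genes called higher became 1 for the matrix enzyme, the mesenchymal and the Hox, 2 for the Sertoli and Leydig, 4 for the maternally expressed and 5 for the chemokine lists, and the number of genes called lower became 2 for the epithelial, 5 for the cell cycle and 11 for the chemokine lists. On the a arrays, the number of genes called higher became 1 for the chemokine lists. On the b arrays, the number of genes called lower became 1 for the cholesterol and 3 for the respiratory chain lists. With line as a random block over 26 arrays, the number of genes called higher became 1 for the mesenchymal and the Hox and 2 for the Sertoli and Leydig lists. With the array letter as a replicate block as well, the number of genes called higher became 1 for the mesenchymal and the Hox and 2 for the Sertoli and Leydig lists. With values raised to the floor, the number of genes called higher became 1 for the endothelial and 2 for the interferon lists. Over the genes detected on all 6 arrays, a setting chosen after seeing the data that tests fewer genes by construction, the number of genes called higher became 0 for the epithelial, the sex-linked and the other lineage, 1 for the pluripotency, the maternally expressed and the endothelial, 2 for the meiosis, the reprogramming factor, the IGF, PDGF and WNT and the interferon, 4 for the germ cell RNA and 6 for the stem cell lists, and the number of genes called lower became 1 for the pluripotency, the reprogramming factor, the macrophage and the endothelial, 2 for the interferon, the chemokine and the other lineage, 3 for the Hox, 6 for the IGF, PDGF and WNT, 11 for the TGF-beta and BMP and 12 for the mesenchymal lists. Leaving out 1 GSC line gave counts of genes called higher of 1 both times for the matrix list, 2 to 3 for the glycolysis list, 1 to 2 for the CDK control list, 2 to 4 for the interferon list, 1 both times for the chemokine list and 1 both times for the paternally expressed list. Leaving out 1 GSC line gave counts of genes called lower of 0 both times for the epithelial list, 3 to 4 for the glycolysis list, 5 to 6 for the GDNF and FGF list, 2 to 3 for the interferon list, 2 to 3 for the chemokine list, 1 to 2 for the paternally expressed list and 0 both times for the cholesterol list.

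Leaving out GSC line 1 and GSC line 2 in turn gave a ribosome list median of -0.0064 and 0.056, a Klf2 difference of 0.20 and -0.29 and a Smc1a difference of 0.042 and -0.018. Detection over the floor limits genes near background, whose fold over the floor is a lower bound while the fitted difference is not, and 1 fibroblast line limits every comparison.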
